A study of Mus musculus with 11 samples.

Results

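Fibrinolysis and coagulation genes expressed in the heart wall were followed as a set of 9, taken from a table of 55513 mouse genes by their symbols. The set holds the plasminogen activators Plat and Plau, the activator receptor Plaur, the protease inhibitor Serpine2, the coagulation initiator and cofactor genes F3 and F5, and the anticoagulant genes Thbd, Tfpi and Tfpi2. RNA was sequenced from the hearts of 11 female C57BL/6J mice aged 8 weeks, in 3 groups. MI (myocardial infarction) was induced in 8 of them by ligation of the left anterior descending artery, and tissue was taken on day 3 from the infarct with its border. Of these, 4 mice received GI254023X, an inhibitor with preference for the metalloprotease ADAM10, at 100 mg/kg from osmotic minipumps (A10i group), and 4 received the vehicle (DMSO group). The other 3 mice were sham-operated, carried the vehicle DMSO as well, and gave healthy heart tissue (Sham group). The inhibitor was given to the whole animal, so no cell type was targeted, and sham tissue differs from infarct tissue in cell makeup as well as in injury.

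Clotting is initiated when tissue factor, the product of F3, meets factor VII from the blood, and the prothrombinase complex of factors Xa and Va then forms thrombin, which turns fibrinogen into fibrin. Tissue factor pathway inhibitor (Tfpi) blocks the initiating complex, and thrombomodulin (Thbd) on endothelium binds thrombin and redirects it to activate the anticoagulant protein C. Fibrin is dissolved by plasmin, which the tissue-type (Plat) and urokinase-type (Plau) activators cut from plasminogen, and in infarcted tissue the same proteases also open the matrix to migrating cells.

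The genes lie on 7 chromosomes of mm10 (GRCm38), with exons as the authors' count table lists them. Plat is at chr8:22757727-22782844 on the plus strand, Plau at chr14:20836660-20843385 (plus), Plaur at chr7:24462484-24475968 (plus), Serpine2 at chr1:79794197-79861180 (minus) and F3 at chr3:121723537-121735048 (plus). F5 is at chr1:164151838-164220277 (plus), Thbd at chr2:148404466-148408188 (minus), Tfpi at chr2:84432855-84476775 (minus) and Tfpi2 at chr6:3962595-3988919 (minus). Thbd has 1 exon. Counts cover all exons of a gene, untranslated and coding, and isoforms were not separated. F5 shares 262 exonic bases with Gm16548 on the opposite strand, and the strand setting of the counting is not given in the sources used here, but Gm16548 had 7 counts over the 11 libraries.

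RefSeq promoter windows of GRCm38.p6 were at hand for 6 of the 9 genes. The 250 bases before the start are shown for Plaur, which changed most, Serpine2, which with Plaur differed most between the infarcted groups, and F3, which initiates coagulation and fell. Capitals mark every match, on either strand, to an AP-1 motif (TGANTCA), a GC box (GGGCGG) or a TATA box (TATAAA), and matches that overlap or touch run together. The windows are chr7:24462233-24462482 (plus) for Plaur, chr1:79858666-79858915 (minus) for Serpine2 and chr3:121723287-121723536 (plus) for F3. That of Serpine2 belongs to a RefSeq start 2515 bases inside the counted gene.
Plaur: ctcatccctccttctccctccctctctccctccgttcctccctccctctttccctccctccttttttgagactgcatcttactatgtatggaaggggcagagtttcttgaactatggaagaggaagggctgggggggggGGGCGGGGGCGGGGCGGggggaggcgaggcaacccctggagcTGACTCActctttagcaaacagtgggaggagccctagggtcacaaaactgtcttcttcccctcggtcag
Serpine2: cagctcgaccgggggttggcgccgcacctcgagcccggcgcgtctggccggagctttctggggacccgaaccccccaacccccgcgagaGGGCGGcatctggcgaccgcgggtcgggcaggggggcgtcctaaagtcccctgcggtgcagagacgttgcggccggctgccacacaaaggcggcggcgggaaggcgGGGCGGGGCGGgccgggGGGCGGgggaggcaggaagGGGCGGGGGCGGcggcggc
F3: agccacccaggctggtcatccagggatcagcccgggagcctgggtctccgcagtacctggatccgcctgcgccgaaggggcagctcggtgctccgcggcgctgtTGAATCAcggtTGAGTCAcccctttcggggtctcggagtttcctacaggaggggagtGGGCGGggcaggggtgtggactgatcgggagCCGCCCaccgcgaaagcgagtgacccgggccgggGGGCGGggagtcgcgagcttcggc
Plaur holds 1 AP-1 match, beginning 69 bases before the start, and 3 GC boxes. F3 holds 2 AP-1 matches, beginning 146 and 135 bases before the start, and 3 GC boxes, while Serpine2 holds 6 GC boxes and no AP-1 match. Among all 32851 mouse windows of this length, 6.75% hold an AP-1 match, 32.7% a GC box and 12.4% a TATA box. The 6 genes have 9 windows, of which 3 hold an AP-1 match, 7 a GC box and 1 a TATA box. The windows with an AP-1 match belong to Plaur and Tfpi2, which rose after MI, and to F3, which fell. These matches are letters only, and binding was not measured.

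Library totals lay between 21702659 and 29511782 counts, and values are given as counts per 1000000 after TMM scaling (CPM) or, to compare genes with each other, as CPM per 1000 exonic bases (FPKM). All 8 cardiomyocyte markers were detected in every group, at summed levels of 76510 to 79089 CPM in Sham, 37509 to 54483 CPM in DMSO and 43915 to 59867 CPM in A10i mice. Mouse A129 of the DMSO group and mouse A116 of the A10i group stood apart from the rest of their groups, with the highest summed fibroblast and macrophage markers and the fewest cardiomyocyte transcripts. In whole tissue, fewer cells of a type and less RNA per cell cannot be told apart.

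In the DMSO group 7 of the 9 genes differed from Sham at an adjusted p under 0.01 in edgeR's quasi-likelihood test, 5 higher and 2 lower. Plaur, Plau, Tfpi2, Plat and Serpine2 rose, F3 and Tfpi fell, and Thbd and F5 did not pass. Over all 17119 genes tested, 12.9% were higher and 9.6% lower by the same rule. The A10i group gave the same split of 5 higher and 2 lower genes, beside 13.8% higher and 9.09% lower of 17004 genes, and it was compared with the same 3 sham mice. Without TMM scaling, by library size alone, the median gene moved by 0.21 (log2) in DMSO and 0.18 in A10i against Sham and the split of all calls changed from 2214 higher and 1643 lower to 3330 and 708 in DMSO, and from 2339 and 1546 to 3435 and 576 in A10i. The 9 genes kept their direction there, but F3 in A10i no longer passed. The number of calls changed most when a sham mouse was left out. Without S1, S2 or S3, 3 members passed in DMSO and 4 in A10i, with fold changes in the same direction for all 7. Calls over all genes fell as well in these fits, which tested 17277 to 17615 genes. In DMSO they were 977 higher and 565 lower without S1, 921 and 601 without S2, and 939 and 601 without S3. In A10i they were 1077 and 543, 1117 and 597, and 1062 and 602.

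**Figure D1:**
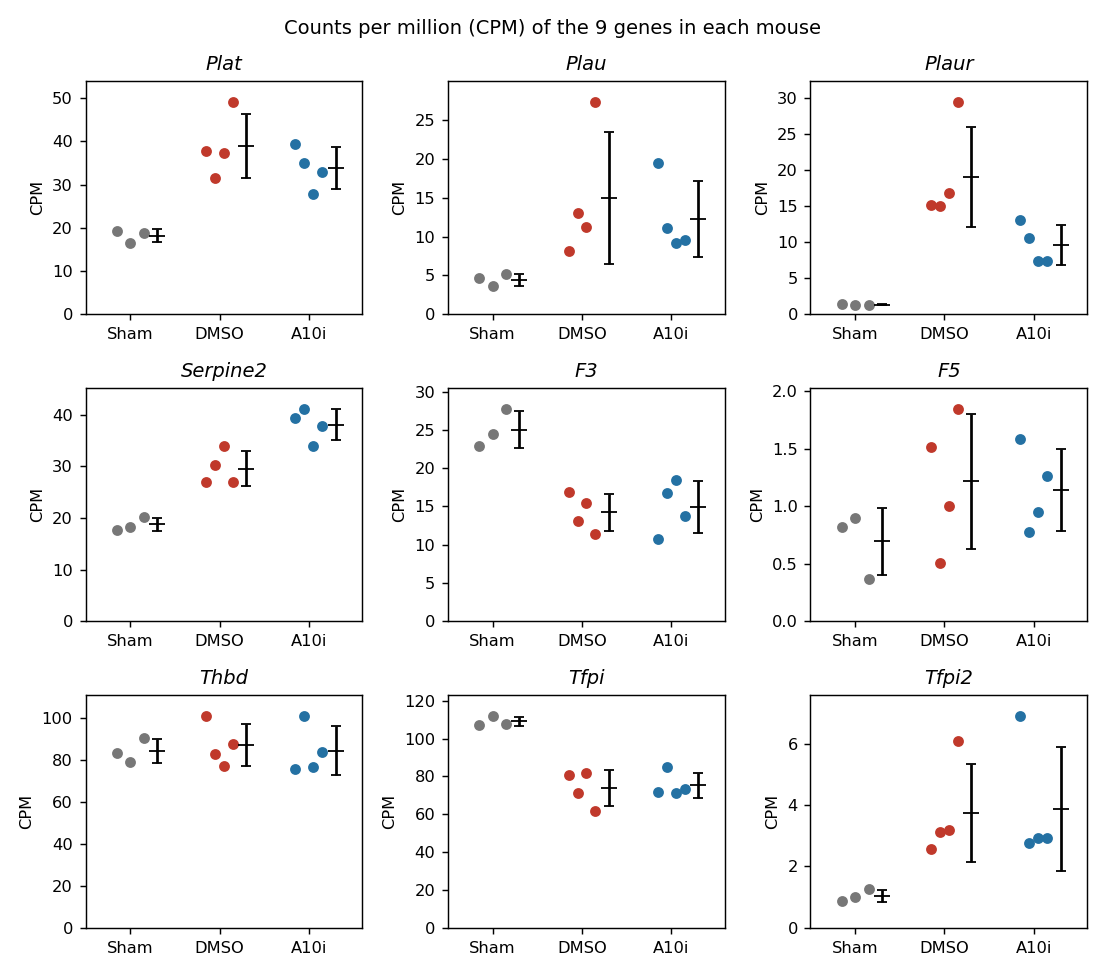
CPM of the 9 genes (vertical axis, from 0) in each of 3 Sham, 4 DMSO and 4 A10i mice (points), with the mean and SD of each group (black bar). Infarcted mice lie above all sham mice for Plat, Plau, Plaur, Serpine2 and Tfpi2 and below them for F3 and Tfpi, and the groups overlap for F5 and Thbd. The share of all genes set apart from Sham in this way was not counted.

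Plasminogen activators rose in both infarcted groups. Plat, which encodes tissue-type plasminogen activator, was at 19.4, 16.5 and 18.8 CPM in the sham mice, 37.7, 31.4, 37.4 and 49.1 CPM in the DMSO mice and 39.4, 35.03, 27.9 and 33.0 CPM in the A10i mice. Every infarcted mouse was above every sham mouse, and the infarcted groups overlapped. How many of all genes were set apart from Sham in this way was not counted. Such a separation, here and for the genes below, is therefore a description only. The rise against Sham was 2.13-fold in DMSO (log2 1.09, SE 0.15, edgeR adjusted p = 0.000615) and 1.87-fold in A10i (log2 0.90, SE 0.12, edgeR adjusted p = 0.000484). Plau, which encodes urokinase, was at 4.64, 3.59 and 5.12 CPM in Sham, 8.1, 13.1, 11.2 and 27.3 CPM in DMSO and 19.5, 11.1, 9.13 and 9.49 CPM in A10i. All infarcted mice were above the sham range, and 1 mouse in each infarcted group, A129 and A116, was well above its group. Plau rose 3.35-fold in DMSO (log2 1.74, SE 0.40, edgeR adjusted p = 0.00885) and 2.78-fold in A10i (log2 1.47, SE 0.29, edgeR adjusted p = 0.00418). The call in DMSO was lost with limma-voom (adjusted p = 0.0173) and, in edgeR, without the filter on low counts (0.0707). It was also lost without mouse A127 (0.0149), A128 (0.0146), S1 (0.0391), S2 (0.0417) or S3 (0.0312), and held in 2 of 7 fits that left out 1 mouse. The call in A10i was lost in edgeR without the filter (0.0335) and in 1 fit of all 11 libraries (0.0202). It held in 4 of 7 fits that left out 1 mouse.

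Plaur encodes the urokinase receptor, which holds the activator at the cell surface and is found on neutrophils, monocytes and other migrating cells. It was at 1.39, 1.31 and 1.33 CPM in Sham, 15.2, 15.0, 16.8 and 29.5 CPM in DMSO and 13.1, 10.6, 7.43 and 7.47 CPM in A10i. The 3 groups did not overlap, with DMSO highest and Sham lowest. Plaur rose 14.2-fold in DMSO (log2 3.83, SE 0.30, edgeR adjusted p = 9.03e-05) and 7.19-fold in A10i (log2 2.85, SE 0.24, edgeR adjusted p = 9.01e-05), the largest changes among the 9 genes in both comparisons. All calls of Plaur against Sham held without any 1 mouse.

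Serpine2 encodes protease nexin-1, a serpin of thrombin, urokinase and plasmin. Its level was 17.7, 18.3 and 20.2 CPM in Sham, 26.9, 30.3, 34.0 and 26.9 CPM in DMSO and 39.4, 41.1, 34.0 and 37.7 CPM in A10i. Infarcted mice were all above the sham mice, and the A10i mice above the DMSO mice, although the highest DMSO mouse (34.01 CPM) and the lowest A10i mouse (34.04 CPM) almost met. Serpine2 rose 1.57-fold in DMSO (log2 0.65, SE 0.11, edgeR adjusted p = 0.00144) and 2.04-fold in A10i (log2 1.03, SE 0.09, edgeR adjusted p = 8.42e-05). With 1 mouse left out, the call of Serpine2 held in 5 of 7 fits in DMSO and in 7 of 7 in A10i. Serpine2 was the only one of the 5 rising genes that did not have its DMSO maximum in mouse A129, where it was level with A105 at the low end (26.9 CPM in both).

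F3, which encodes tissue factor, fell after MI. It was at 23.0, 24.4 and 27.7 CPM in Sham, 16.9, 13.1, 15.4 and 11.4 CPM in DMSO and 10.7, 16.7, 18.4 and 13.7 CPM in A10i, with all infarcted mice below all sham mice. The level was 1.77-fold lower in DMSO (log2 -0.82, SE 0.14, edgeR adjusted p = 0.00152) and 1.68-fold lower in A10i (log2 -0.75, SE 0.16, edgeR adjusted p = 0.00672). The call in A10i was lost by library size alone (edgeR adjusted p = 0.0111), without the filter on low counts (0.0101) and without mouse A120 (0.0218). It was also lost without S1 (0.0182) or S2 (0.0226), and held in 3 of 7 fits that left out 1 mouse. The call in DMSO held in 6 of 7 such fits. F5, which encodes coagulation factor V and is made mainly by the liver and by megakaryocytes, was near the limit of detection. It had 19, 24 and 9 counts in Sham, 36, 15, 30 and 47 in DMSO and 40, 20, 23 and 28 in A10i. These ranges overlapped, and the log2 differences against Sham, 0.78 in DMSO (95% confidence interval -0.26 to 1.83) and 0.71 in A10i (-0.10 to 1.52), were not detectable at this depth. In the megakaryocyte and platelet list, 4 of 8 markers passed the filter and the summed level was 11.7 to 15.4 CPM in Sham, 30.2 to 62.9 CPM in DMSO and 25.7 to 58.6 CPM in A10i, and Gp1bb was at 0 in Sham and A10i. Its part in the values of F5 was not tested.

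Of the anticoagulant genes, Tfpi fell, Tfpi2 rose and Thbd did not pass. Tfpi was at 107.3, 112.0 and 107.9 CPM in Sham, 80.6, 71.4, 81.6 and 61.6 CPM in DMSO and 71.7, 84.8, 71.0 and 73.6 CPM in A10i, so no infarcted mouse reached the sham range. The fall was 1.48-fold in DMSO (log2 -0.57, SE 0.10, edgeR adjusted p = 0.00229) and 1.45-fold in A10i (log2 -0.53, SE 0.07, edgeR adjusted p = 0.000637). With 1 mouse left out, the call of Tfpi held in 4 of 7 fits in DMSO and in 7 of 7 in A10i. Tfpi2, a related Kunitz-type inhibitor that is deposited in the matrix and acts on plasmin, was at 0.866, 1.01 and 1.25 CPM in Sham, 2.57, 3.12, 3.19 and 6.09 CPM in DMSO and 6.9, 2.75, 2.93 and 2.92 CPM in A10i. All infarcted mice exceeded the sham mice, with A129 and A116 again highest. Tfpi2 rose 3.57-fold in DMSO (log2 1.83, SE 0.33, edgeR adjusted p = 0.00253) and 3.72-fold in A10i (log2 1.89, SE 0.38, edgeR adjusted p = 0.00444). With 1 mouse left out, its call held in 4 of 7 fits in each comparison.

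Thbd, the thrombomodulin gene, was at 83.2, 79.1 and 90.7 CPM in Sham, 100.8, 83.1, 77.2 and 87.8 CPM in DMSO and 75.7, 101.1, 76.9 and 84.1 CPM in A10i. The groups overlapped throughout. The log2 difference against Sham was 0.04 in DMSO (95% confidence interval -0.18 to 0.27) and 0.0049 in A10i (-0.22 to 0.23), so a change of the size seen for Tfpi lay outside both intervals.

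**Figure D2:**
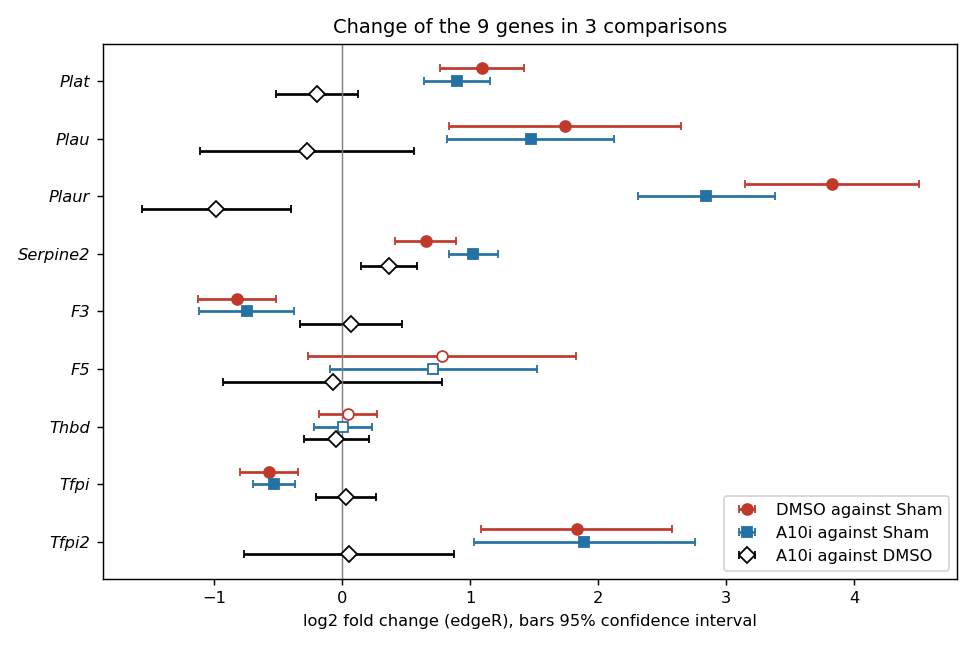
Log2 fold changes of the 9 genes (edgeR, horizontal axis) with 95% confidence intervals, for DMSO against Sham (circles), A10i against Sham (squares) and A10i against DMSO (diamonds). Filled symbols have an adjusted p under 0.01, and all 9 diamonds are open.

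Markers of other cells moved beside these changes. Summed over 10 endothelial markers, 1038 to 1048 CPM were found in Sham, 843 to 994 CPM in DMSO and 989 to 1102 CPM in A10i, and of the 10 markers 1 was higher and 2 lower in DMSO and 1 higher and 1 lower in A10i against Sham at an adjusted p under 0.01. In the fibroblast list, 4 of 8 markers in DMSO and 7 of 8 in A10i rose, with summed levels of 1151 to 1237 CPM in Sham, 1909 to 6399 CPM in DMSO and 4828 to 8924 CPM in A10i. The macrophage list gave 5 and 7 risen markers of 8. In DMSO 1 macrophage marker had a lower estimate than in Sham (log2 -0.62), which DESeq2 called and edgeR did not. Smooth muscle and pericyte markers summed to 1487 to 1601 CPM in Sham, 836 to 1081 CPM in DMSO and 1097 to 1212 CPM in A10i, with 1 higher and 3 lower of 8 in DMSO and 2 higher and 3 lower in A10i. Of the cardiomyocyte markers, 4 of 8 fell in DMSO and 3 of 8 in A10i. The part of these shifts in the rises of Plat, Plau, Serpine2 and Tfpi2 and in the falls of F3 and Tfpi was not tested.

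Per length, Thbd and Tfpi were the most abundant of the 9 transcripts in every group. The sham order of mean FPKM was Thbd (22.7 ± 1.58, SD, n = 3), Tfpi (19.97 ± 0.468), F3 (9.91 ± 0.971), Plat (2.92 ± 0.246), Serpine2 (2.26 ± 0.154), Plau (1.88 ± 0.330), Tfpi2 (0.597 ± 0.111), Plaur (0.513 ± 0.0151) and F5 (0.0935 ± 0.0390). Only the ranges of Serpine2 and Plau, and of Tfpi2 and Plaur, overlapped between neighbours. In the DMSO group Plaur was the third at 7.31 ± 2.65 FPKM (SD, n = 4), followed by Plau (6.3 ± 3.59), Plat (6.23 ± 1.18) and F3 (5.63 ± 0.955), and the ranges of neighbours among these 4 overlapped. Below them were Serpine2 (3.57 ± 0.409) and Tfpi2 (2.14 ± 0.909), whose ranges overlapped, and F5 (0.164 ± 0.0794). With A10i, F3 was the third at 5.9 ± 1.34 FPKM (SD, n = 4), and neighbours overlapped from F3 through Plat (5.42 ± 0.765), Plau (5.19 ± 2.05), Serpine2 (4.59 ± 0.364), Plaur (3.68 ± 1.04) and Tfpi2 (2.22 ± 1.16), with F5 last.

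**Figure D3:**
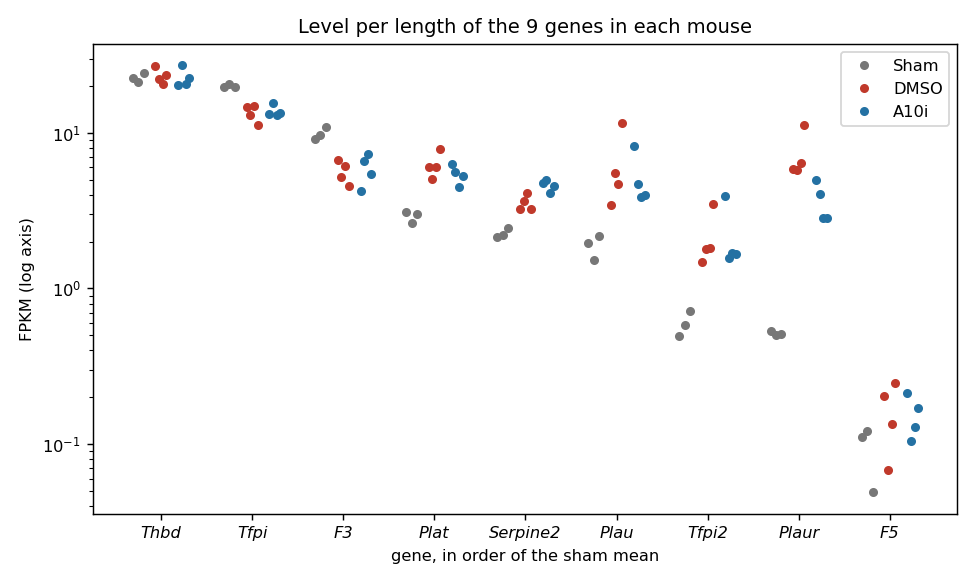
Level per length of the 9 genes (FPKM, log axis) in each mouse of the Sham, DMSO and A10i groups, with genes in the order of their sham mean. Thbd and Tfpi are highest in all 3 groups, and Plaur moves from the eighth place in Sham to the third in DMSO.

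Between the infarcted groups, the question was whether the inhibitor altered these genes. None of the 9 passed an adjusted p of 0.01 in edgeR, in DESeq2 or in limma-voom. In edgeR 0% of 16793 genes passed in the higher and 0% in the lower direction. DESeq2 called 0.605% higher and 0.714% lower of 17519 genes. At an unadjusted p under 0.05, 1 of the 9 was lower in A10i (Plaur) and 1 higher (Serpine2), beside 6.73% and 7.1% of all genes. The same pair of genes showed no overlap between the groups, which held for 4.11% of genes in the lower and 4.01% in the higher direction.

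Plaur was 1.98-fold lower in A10i than in DMSO mice (log2 -0.98, SE 0.26, 95% confidence interval -1.57 to -0.40), with an adjusted p of 0.157 in edgeR and 0.0122 in DESeq2. Without A129 the log2 difference was -0.70. Serpine2 was 1.29-fold higher (log2 0.37, SE 0.10, interval 0.15 to 0.59), with an adjusted p of 0.156 in edgeR and 0.0608 in DESeq2. It lay between 0.32 and 0.45 when any 1 mouse was left out. Thus both genes had an unadjusted p under 0.05 in edgeR, and neither passed after correction over all genes. The same unadjusted rule held for 6.73% of all genes in the lower and 7.1% in the higher direction.

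The intervals of the other 7 genes included 0. Plat differed by -0.20 on the log2 scale (-0.52 to 0.12), F3 by 0.07 (-0.33 to 0.47), Tfpi by 0.03 (-0.20 to 0.27) and Thbd by -0.04 (-0.30 to 0.21). Those of Plau at -0.27 (-1.11 to 0.57), Tfpi2 at 0.05 (-0.76 to 0.87) and F5 at -0.07 (-0.93 to 0.78) were wide enough to hold changes past 1 log2 unit or close to it. Plau turned to 0.19 without mouse A129, and Tfpi2 ranged from -0.38 without A116 to 0.39 without A129.

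Neutrophil markers followed the same order of groups as Plaur. Summed over 8 markers they were at 1.12 to 2.12 CPM in Sham, 73.0 to 146.6 CPM in DMSO and 14.1 to 50.5 CPM in A10i, and Ly6g was at 0 in Sham. In A10i against DMSO all 7 tested markers were lower, 7 at an unadjusted p under 0.05 and none at an adjusted p under 0.01 in edgeR, while DESeq2 called 5. Macrophage markers summed to 371 to 562 CPM in DMSO and 498 to 791 CPM in A10i, ranges that overlapped, and all 8 had a higher estimate in A10i, 6 at an unadjusted p under 0.05 and none at an adjusted p under 0.01 in edgeR or DESeq2. Endothelial, fibroblast and smooth muscle lists had a median log2 difference of 0.10, 0.49 and 0.33 in A10i against DMSO, each with no marker past an adjusted p of 0.01 in edgeR, while DESeq2 called 1 endothelial marker higher. At an unadjusted p under 0.05, 2 of 10, 2 of 8 and 4 of 8 of these markers were higher and none lower. Mesothelial markers were at 46.3 to 71.5 CPM in DMSO and 62.1 to 128.9 CPM in A10i, against 30.6 to 51.9 CPM in Sham. All 7 had a higher estimate in A10i than in DMSO (median log2 0.76), 6 at an unadjusted p under 0.05. None passed an adjusted p of 0.01 in edgeR or DESeq2. Red blood cell transcripts were highest in A105 (3706 CPM) and A117 (5026 CPM). The part of all these markers in the differences of Plaur and Serpine2 was not tested.

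**Figure D4:**
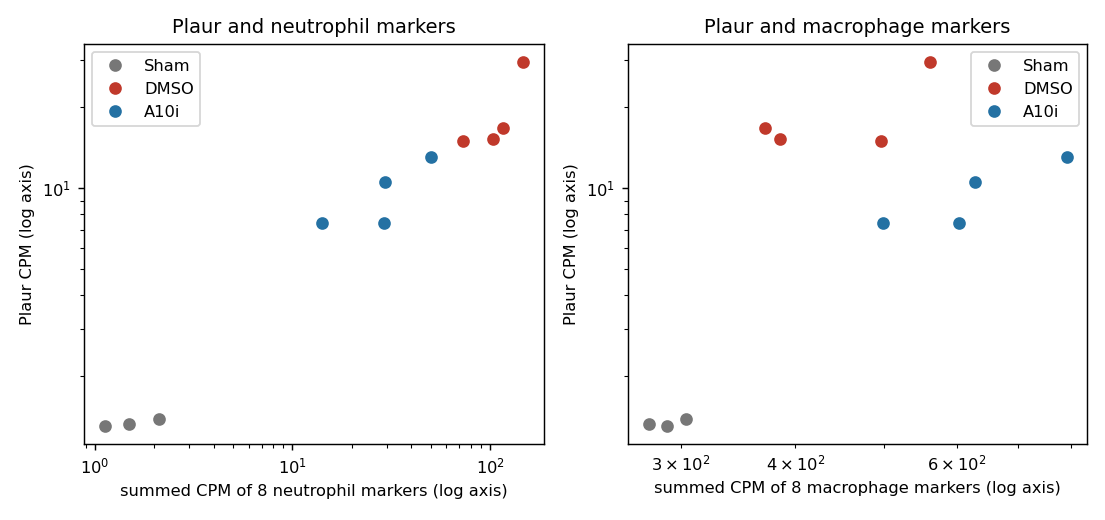
Plaur CPM (vertical, log axis) in each mouse against the summed CPM of 8 neutrophil markers (left) and 8 macrophage markers (right), both on log axes, for Sham, DMSO and A10i mice. Plaur and the neutrophil sum are both lowest in Sham and highest in DMSO without overlap, while the macrophage sums of DMSO and A10i mice overlap.

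The balance between members was taken as a log2 ratio within each mouse. Of 12 comparisons (4 ratios in 3 pairs of groups), none passed an adjusted p of 0.01, and none could with so few mice. In an exact two-sided permutation test, p could not fall below 0.0571 against Sham and 0.0286 between the infarcted groups. Benjamini-Hochberg adjustment cannot lower these values, so the test could not decide whether a ratio shifted. Serpine2 to Plat, inhibitor to activator, was -0.13, 0.15 and 0.10 in Sham, -0.48, -0.05, -0.14 and -0.86 in DMSO and -0.0014, 0.23, 0.28 and 0.19 in A10i. All A10i mice were above all DMSO mice, by a mean of 0.56 (exact permutation p = 0.0286, adjusted 0.137). Thbd to F3, an anticoagulant to the initiator, was 1.85, 1.69 and 1.71 in Sham, 2.57, 2.65, 2.32 and 2.93 in DMSO and 2.81, 2.59, 2.06 and 2.61 in A10i. Infarcted mice were all higher, by 0.87 in DMSO and 0.76 in A10i (exact permutation p = 0.0571 and adjusted p = 0.137 for each). Tfpi to F3 differed from Sham by 0.25 in DMSO (exact permutation p = 0.0571, adjusted 0.137) and 0.23 in A10i (exact permutation p = 0.343), and Plau to Plat by 0.51 in both (exact permutation p = 0.286 and 0.0571).

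The other genes of coagulation and fibrinolysis were taken as a list of 44. Of these, 25 passed the filter in DMSO against Sham, where 14 rose and 1 fell, and 23 in A10i against Sham, where 13 rose and 1 fell, beside the 12.9% higher and 9.6% lower, and 13.8% higher and 9.09% lower, of all genes. Some of them had under 10 counts in every sham library and passed the filter only through the infarcted mice, 5 in DMSO (Serpinb2, F7, F10, Serpinc1 and Serpind1) and 3 in A10i (Serpinb2, F7 and F10). Among the other 20 genes 11 rose and 1 fell in each comparison, with a median log2 change of 0.69 in DMSO and 0.66 in A10i, beside 0.0021 and -0.0056 for all genes tested. Without S1, S2 or S3 the number called in DMSO dropped from 15 to 7, 5 and 8, and that in A10i from 14 to 9 each time. Calls over all genes dropped in the same fits, as given above. Transcripts that the liver makes for the blood, such as plasminogen (Plg), prothrombin (F2), factor XI (F11) and the fibrinogen chains (Fga, Fgb and Fgg), did not pass the filter.

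In the plasminogen system 6 of 8 tested genes rose and 1 fell in each infarcted group. The risen genes included Serpinb2, which passed the filter only through the infarcted mice, so its call is no support. Serpinb2, which encodes a urokinase inhibitor, had 0, 1 and 0 counts in Sham, 66, 106, 200 and 275 in DMSO and 82, 21, 12 and 99 in A10i. Thbs1, an adhesive glycoprotein of platelets and wounds, rose 26.7-fold and 13.4-fold in DMSO and A10i, and Anxa2, part of a plasminogen receptor with S100a10, 3.71-fold and 3.27-fold. S100a10 itself rose 2.01-fold and 1.99-fold, and Mrc2, a collagen receptor that associates with the urokinase receptor, 1.98-fold and 2.26-fold. Vtn, which encodes the matrix protein vitronectin, a ligand of the urokinase receptor, fell 1.77-fold and 1.70-fold and was named after its values were seen, as the gene of the list that fell.

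Of 5 procoagulant factors tested, F13a1 was called higher in DMSO and in A10i, where 12.9% and 13.8% of all genes were. F10 was also called in both comparisons and F7 in DMSO. F7 and F10 were among the genes low in Sham and passed the filter only through the infarcted mice. Their calls are therefore no support, and their values are given as counts alone. F10, for the protease that forms thrombin, had 4, 7 and 5 counts in Sham, 191, 187, 100 and 339 in DMSO and 103, 56, 18 and 30 in A10i. F7, for the partner of tissue factor, had 9, 8 and 9 counts in Sham, 55, 88, 37 and 158 in DMSO and 102, 40, 15 and 30 in A10i. Every infarcted mouse was above every sham mouse for both, which is no support either, for the same reason. F13a1, the fibrin cross-linking subunit, rose 1.69-fold and 1.86-fold. Among anticoagulants Procr, the endothelial protein C receptor that works with thrombomodulin, rose 5.93-fold and 4.57-fold, and protein S (Pros1) 1.64-fold and 1.58-fold. They were 2 of 5 tested genes in DMSO and 2 of 3 in A10i. The 5 in DMSO included Serpinc1 and Serpind1, which were low in Sham. Receptors for thrombin and related proteases, F2r and F2rl1, rose 1.82-fold and 2.48-fold in DMSO and 1.58-fold and 1.97-fold in A10i, 2 of 3 tested. In the group of 4 vitamin K cycle and transport genes, 1 passed as higher in each comparison. These were Mcfd2 (1.28-fold in DMSO), which helps to export factor V, and Vkorc1 (2.18-fold in A10i), the target of warfarin. Neither was higher in 1 group alone. Vkorc1 was at 3.21 to 3.79 CPM in Sham and 4.47 to 8.52 CPM in DMSO. Mcfd2 was at 58.5 to 62.0 CPM in Sham and 65.3 to 77.9 CPM in A10i.

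In A10i against DMSO, 24 of the 44 genes were tested and none passed an adjusted p of 0.01 in edgeR, DESeq2 or limma-voom. Of these, 2 were lower at an unadjusted p under 0.05 (F10 and Thbs1) and none was higher, where 6.73% of all genes were lower and 7.1% higher.

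**Figure D5:**
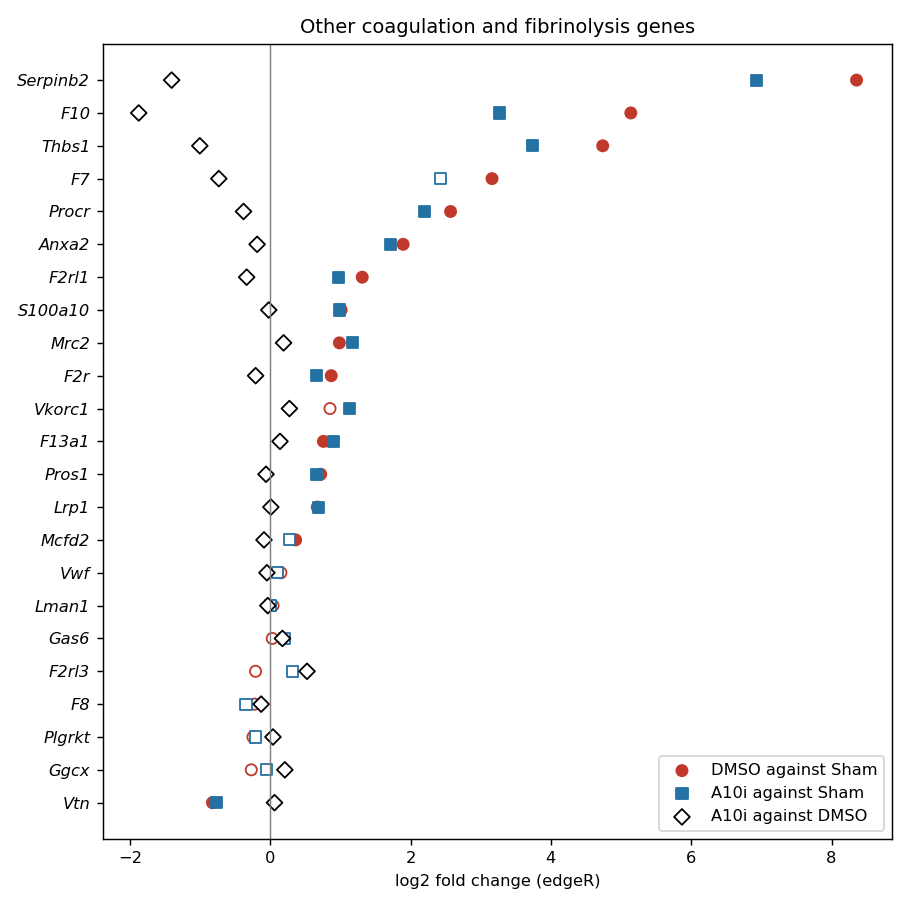
Log2 fold changes (edgeR, horizontal axis) of the 23 further coagulation and fibrinolysis genes tested in all 3 comparisons, for DMSO against Sham (circles), A10i against Sham (squares) and A10i against DMSO (diamonds), filled where the adjusted p is under 0.01. The value of Serpinb2 against Sham rests on 1 count over the 3 sham mice and is no measured fold, and all diamonds are open.

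For each gene, the transcripts closest in pattern were those with the highest Pearson r of log2 CPM over the 11 libraries, among 17499 genes. The 8 infarcted and 3 sham mice form separate clusters, so r was also taken over the 8 infarcted mice after the mean of each group was removed. For the 27 genes named here it then lay between 0.45 and 0.99, and for the closest gene of each member between 0.80 and 0.98. The genes were picked from 17499 on libraries that include these 8 mice. The second r is therefore no independent check, and the share of all genes reaching such values was not counted. Plaur was closest to Chil3 (r = 0.99), Cd44 and Thbs1, Plau to Fbln2 (0.98), Tnfrsf23 and Fam91a1, and Tfpi2 to Fyb (0.99), Efemp2 and Gmip. The nearest to Plat were Adam9 (0.99), Gm9625 and Rpl17-ps5, where reads of the last could belong to near-identical copies. Serpine2 was followed by Il17re (0.97), Myrf, which had the lowest value over the infarcted mice, and Cfb. F3 paired with Arhgap21 (0.99), Dym and Kif13a, and Tfpi with Sh3rf2 (0.97), Rufy1 and Kcnd3. For Thbd the highest values were lower, with Zmiz1 (0.83), Golga3 and Tatdn2, and for F5 they were Pgk1-rs7 (0.91), Rybp-ps and Gm49339 at few counts.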

How the data were processed

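Poly(A) RNA of 11 mouse hearts was sequenced by the authors with a strand-specific kit. The authors aligned read pairs with GSNAP 2020-12-16 to mm10 and used featureCounts 2.0.1 for the uniquely aligned reads of each Ensembl 98 gene, and they deposited raw counts, which are whole numbers. Totals of 21702659 to 29511782 per library set the counting precision. Unique alignment lowers genes with near-identical copies. Symbols matched 55154 of 55513 identifiers. Over 15 pairs of replicates the chi-square per degree of freedom was 3.8 to 55.2, so no library was counted as a repeat.

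Each comparison was tested on its own libraries in R 4.3.3 with edgeR 4.0.16 (filterByExpr, TMM, robust quasi-likelihood F-test, two-sided, Benjamini-Hochberg over all genes tested, threshold 0.01). In these fits a p-value sets a group difference against the spread between mice, which is estimated with information shared across genes. FPKM was computed as CPM per 1000 exonic bases. Ratios used log2 CPM with a prior count of 2 and an exact permutation test. Alternatives were DESeq2 1.42.0, limma-voom (limma 3.58.1), RLE, upper quartile and library size scaling, no filter, at least 10 counts in every library, a joint fit, a threshold of 0.05, a prior count of 0.5 and leaving out each library. In simulated counts for A10i against DMSO, 77 of 100 genes changed 2-fold were recovered and 95 of 100 changed 4-fold, with 4 false calls. These counts were drawn for each gene independently with the dispersions estimated here, a simpler setting than real mice. The shares recovered therefore check the fit and do not give its power in the real comparison, where edgeR called no gene. The members and lists were chosen with earlier results of these data known. All 9 members were named and, in each comparison with Sham, up to 4 called genes of each pathway list with the largest change. Vtn and the genes that did not pass the filter were picked with their values known. A gene of the pathway is not reported here. Promoter letters came from RefSeq (GRCm38.p6). Tables were handled in Python 3.11.15 with pandas 2.3.3 and numpy 2.4.6.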

Additional observations from a re-analysis of the deposited data

Results flagged for a closer look

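In each group of 4 infarcted mice, a mouse was singled out when its gap to the nearest other mouse, as a share of the group's range, was above Dixon's critical value at the 95% level. Of 54 sets of values examined (the members, the named pathway genes and the ratios in both infarcted groups), 5 met this, where chance gives about 1 in 20. Mouse A129 of the DMSO group was the highest for Plaur at 29.5 CPM (gap share 0.872), with the other mice at 15.0 to 16.8 CPM. The same mouse was highest for Anxa2 at 371.5 CPM (gap share 0.855, others 198.2 to 223.3 CPM) and for F13a1 at 147.7 CPM (gap share 0.941, others 106.6 to 109.0 CPM). Mouse A116 of the A10i group was highest for Tfpi2 at 6.9 CPM (gap share 0.956, others 2.75 to 2.93 CPM) and for Anxa2 at 295.6 CPM (gap share 0.887, others 189.8 to 201.8 CPM). Both mice also had the highest summed fibroblast and macrophage markers of their groups, and the part of these markers in the values was not tested.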

How the results depend on the processing

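Of 241 log2 fold changes under other tools, scalings, filters and thresholds, 232 kept direction and side of the threshold, 6 no longer passed and 3 turned direction. The threshold of 0.05 was applied to the main fit, so its entries could not change in value or direction. The 3 turns came from refits. They were Thbd in A10i against Sham (-0.0034 with limma-voom and -0.0096 with upper quartile scaling) and F5 in A10i against DMSO (0.054 with limma-voom), all near 0. The count of members called stayed within 1.5 times under each of these settings and so did that of pathway genes. Leaving out 1 mouse at a time gave 3 to 7 members called in DMSO and 4 to 7 in A10i against Sham, and 5 to 16 pathway genes in DMSO and 9 to 15 in A10i against Sham. The low ends are the fits with 2 sham mice, which have fewer samples. In the same way, log2 changes that turned direction ranged from -0.046 to 0.10 for Thbd in DMSO and from -0.092 to 0.058 in A10i against Sham. In A10i against DMSO the ranges were -0.58 to 0.19 for Plau, -0.048 to 0.20 for F3, -0.34 to 0.20 for F5, -0.14 to 0.033 for Thbd, -0.047 to 0.086 for Tfpi and -0.38 to 0.39 for Tfpi2. Ratios in that comparison ranged from -0.24 to 0.22 for Plau to Plat, -0.14 to 0.12 for Tfpi to F3 and -0.20 to 0.049 for Thbd to F3. The cause of these turns was not tested. F5 rested on 9 to 47 counts per library, so small changes were not detectable, and the filter of 10 counts in every library removed it from both comparisons with Sham. No paired analysis was possible because the groups share no replicate numbers.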
